A study of Mus musculus with 10 samples.

Results

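Voltage-gated sodium channel subunit genes were followed in mouse cerebral cortex 8 days after birth. The members were taken by name: the alpha subunit genes Scn1a, Scn2a, Scn3a and Scn8a and the beta subunit genes Scn2b, Scn3b and Scn4b. All 7 were among the 30935 genes counted, and all 7 were among the 15488 genes with enough counts to be tested. Total RNA was sequenced from 5 mice that lacked HAR.505 on both chromosomes (knockout, replicates 1, 3, 5, 6 and 8) and from 5 wild-type mice (replicates 2, 4, 5, 6 and 7). HAR.505 is a human accelerated region in the Rbfox1 locus, the gene of a neuronal splicing regulator, and the labels name no transgene or Cre. The sources used here give neither strain nor sex. From Xist and Y-linked counts, 2 knockout libraries and 1 wild-type library were from males.

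Sodium channels open when the membrane depolarises and carry the current that starts the action potential. An alpha subunit forms the pore, and beta subunits, single-pass proteins with an extracellular immunoglobulin domain, set gating and placement. In rodent brain Scn3a is the embryonic and neonatal alpha gene, Scn2a serves immature axons and excitatory neurons, and Scn1a and Scn8a rise later, Scn1a mainly in fast-spiking interneurons and Scn8a at the axon initial segment and nodes of Ranvier. The day studied lies within this exchange, and the question was where the subunits stood in it and whether the genotypes differed.

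Library totals ran from 16479594 to 22391943 counts. The 5 cortical excitatory markers, among them Slc17a7, Neurod6, Tbr1 and Emx1, were present in every library, with summed levels of 1335 to 1482 CPM (the gene's share of the scaled library total, in parts per 1000000) in knockout and 1290.2 to 1384 CPM in wild-type libraries. Markers of neighbouring tissue were unequal between the libraries. The 16 striatal markers summed to 247 to 328 CPM in knockout and 307 to 475 CPM in wild-type libraries, with Isl1 at 0 in at least 1 library. The 14 choroid plexus and ependymal markers summed to 111 to 357 CPM in knockout and 352 to 439 CPM in wild-type libraries, with Ttr, Otx2 and Tmem212 at 0 in at least 1 library. All 14 had a fold change below 0, beside 7878 of the 15488 tested genes. By the edgeR test given below, 2 of the 14, Clic6 and Tmem72, were called lower, beside 0.194% of tested genes.

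Scn2b and Scn4b are neighbouring beta subunit genes on chromosome 9. By the test given below, Scn2b was called different between the genotypes and Scn4b was not. The 2 are the only members whose products bind the alpha subunit through a disulfide bond. Their start regions differ in composition, as shown here for the 300 bases from 250 before to 50 after the start in RefSeq's GRCm38.p6, plus strand, chr9:45117626-45117925 for Scn2b and chr9:45138374-45138673 for Scn4b. The capitals mark CG dinucleotides.
Scn2b: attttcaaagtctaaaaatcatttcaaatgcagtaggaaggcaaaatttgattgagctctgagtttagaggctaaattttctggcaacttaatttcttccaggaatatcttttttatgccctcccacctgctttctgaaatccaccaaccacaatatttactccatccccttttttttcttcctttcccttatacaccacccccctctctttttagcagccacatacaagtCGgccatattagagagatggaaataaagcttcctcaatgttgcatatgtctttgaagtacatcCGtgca
Scn4b: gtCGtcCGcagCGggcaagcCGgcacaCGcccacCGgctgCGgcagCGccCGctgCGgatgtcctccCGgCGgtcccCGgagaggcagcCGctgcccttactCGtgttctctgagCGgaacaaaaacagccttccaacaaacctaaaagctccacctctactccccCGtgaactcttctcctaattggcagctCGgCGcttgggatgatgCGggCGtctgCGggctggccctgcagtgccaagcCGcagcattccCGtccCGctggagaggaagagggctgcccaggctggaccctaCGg
The Scn2b window held 2 CG dinucleotides and was 38.3% G or C, and the Scn4b window held 26 and was 66.3% G or C. Over 32851 promoter windows of the same length the median was 7 CG dinucleotides and 52.7% G or C. At least 1 CG was present in 94.6% of the windows, and 23.3% of windows had as few as Scn2b, while 16.9% had as many as Scn4b. Windows were at hand for 5 of the 7 members. The Scn1a window held 5 CG dinucleotides, those of the listed Scn2a starts 3 and 9, and those of the listed Scn8a starts 38 and 12. These are descriptions of the reference sequence, and no chromatin was measured.

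Of the 7 subunit genes, Scn2b rose in the knockout, by a fold of 1.21, and the other 6 did not pass the test. The edgeR quasi-likelihood test compared knockout with wild type over all tested genes, with a threshold of 0.05 on the Benjamini-Hochberg adjusted p. By this rule 59 of 15488 genes were called, 0.381%, with 29 of them higher in the knockout, 0.187%. In 0 of the 7 members did all knockout libraries lie on one side of all wild-type libraries, which held for 1.83% of tested genes (0.93% with the knockout higher and 0.897% with it lower). At an unadjusted p under 0.05, 1 of the 7 differed, Scn2b, beside 8.71% of tested genes. The median log2 fold change of the 7 members was -0.031, beside -0.0021 over all tested genes. In bulk tissue, fewer cells of a type and less RNA per cell cannot be told apart.

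**Figure D1:**
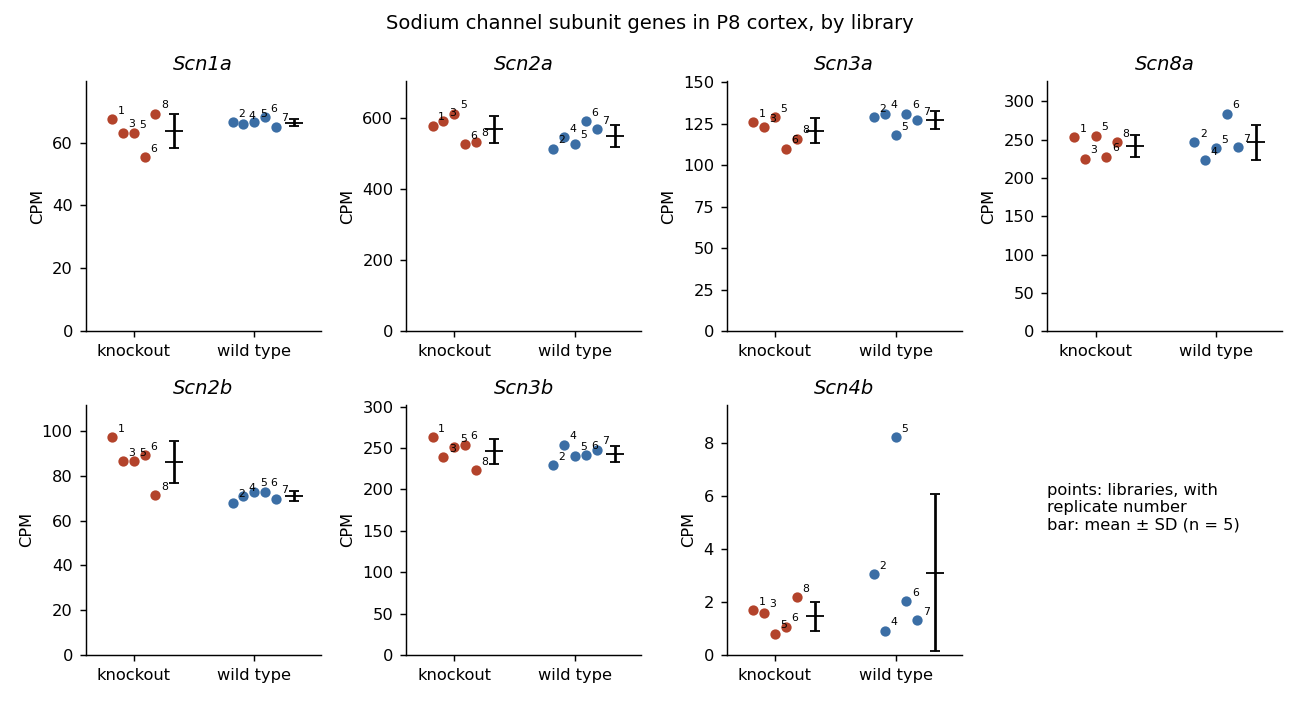
Level of the 7 subunit genes in CPM in each library, knockout (left, red) and wild type (right, blue), with replicate numbers and mean ± SD (n = 5). Knockout replicate 8 lies among the wild-type libraries for Scn2b (71.3 CPM), and wild-type replicate 5 stands above the rest for Scn4b (8.22 CPM).

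Scn3a (Entrez gene 20269), the early alpha gene, was still well expressed at this age. In replicate order it stood at 126, 123, 129, 110 and 116 CPM in knockout and at 129, 131, 118, 131 and 127 CPM in wild-type libraries. The groups overlapped, with knockout replicate 6 lowest of all. The means were 121 ± 7.66 CPM in knockout and 127 ± 5.15 CPM in wild type (SD, n = 5 each). On the log2 scale knockout over wild type was -0.08 (SE 0.0519, edgeR adjusted p = 0.747), so the gene was not called. The 95% interval of the fold ran from 0.881 to 1.02.

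Scn2a (Entrez gene 110876), the alpha gene of excitatory neurons, had the most reads of the 7. It stood at 578, 591, 612, 526 and 533 CPM in knockout and at 514, 545, 527, 591 and 568 CPM in wild-type libraries. The ranges overlapped over most of their extent. Its log2 fold change was 0.05 (SE 0.0495, edgeR adjusted p = 0.868), and the 95% interval of the fold was 0.965 to 1.11.

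Scn8a (Entrez gene 20273), the alpha gene of mature initial segments and nodes, stood at 253, 225, 255, 228 and 247 CPM in knockout and at 247, 223, 239, 284 and 240.1 CPM in wild-type libraries. Wild-type replicate 6 was the highest of the 10. The log2 fold change was -0.03 (SE 0.0557, edgeR adjusted p = 0.946), with a 95% interval of the fold from 0.905 to 1.06. Without wild-type replicate 6 it was 0.03.

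Scn1a (Entrez gene 20265), whose loss of function causes Dravet syndrome in people, was the lowest of the alpha members in counts. It stood at 67.5, 63.2, 62.9, 55.4 and 69.2 CPM in knockout and at 66.5, 65.8, 66.4, 68.1 and 65.1 CPM in wild-type libraries. The knockout libraries were spread on both sides of a narrow wild-type range, with means of 63.6 ± 5.36 CPM in knockout and 66.4 ± 1.10 CPM in wild type (SD, n = 5 each). The log2 fold change was -0.06 (SE 0.0603, edgeR adjusted p = 0.868), and the 95% interval of the fold ran from 0.88 to 1.04.

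Scn2b (Entrez gene 72821) encodes a beta subunit that promotes surface expression of the channel. It stood at 97.2, 86.6, 86.5, 89.2 and 71.3 CPM in knockout and at 68.0, 71.0, 72.9, 73.0 and 69.7 CPM in wild-type libraries. In 4 of 5 knockout libraries it was above every wild-type library, and knockout replicate 8 lay inside the wild-type range. The means were 86.2 ± 9.41 CPM in knockout and 70.9 ± 2.13 CPM in wild type (SD, n = 5 each). Scn2b rose by 0.28 on the log2 scale (SE 0.0637, edgeR adjusted p = 0.041), with a 95% interval of the fold from 1.11 to 1.33.

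The direction of Scn2b was the same under all 23 alternatives and its call was not. It passed the test in 7 of the 23. The share of all genes called in these 7 was 0.368% with relative log expression (RLE) and 0.407% with upper quartile scaling, 0.733% with no filter, 0.407% with at least 50 counts in 5 libraries, 0.801% with DESeq2, 1.16% without knockout replicate 8 and 0.39% without wild-type replicate 6. Of the 10 fits with 1 library left out, Scn2b was thus called in 2, those without knockout replicate 8 (log2 fold change 0.345, adjusted p = 0.000739) and without wild-type replicate 6 (0.30, adjusted p = 0.0456). Adjusted p was 0.141, 0.126, 0.0657 and 0.0973 without knockout replicate 1, 3, 5 or 6, and 0.149, 0.105, 0.0835 and 0.0975 without wild-type replicate 2, 4, 5 or 7, with log2 fold changes of 0.23 to 0.29 in these 8 fits. It was 0.435 (log2 fold change 0.25) without knockout replicates 3, 5 and 6, the libraries lowest in the choroid gene Ttr, an alternative chosen after the data were seen.

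**Figure D2:**
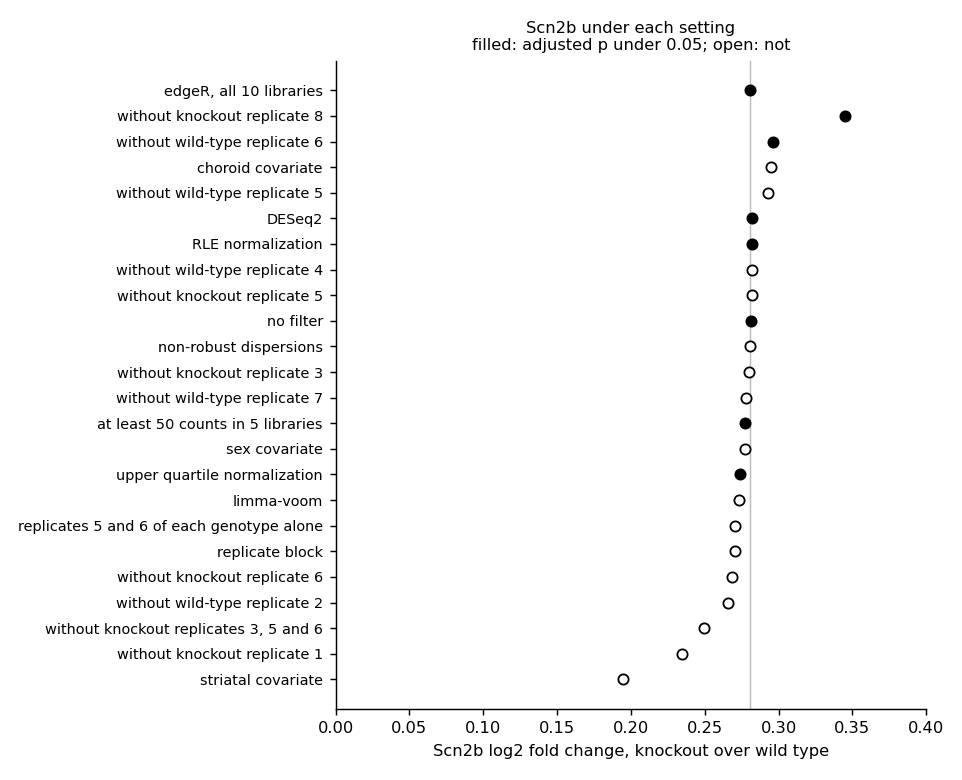
Scn2b log2 fold change (x axis, knockout over wild type) under each setting (rows), filled where the adjusted p was under 0.05. All points lie above 0, between 0.19 and 0.345, and 8 of the 24 are filled, the fit to all 10 libraries included.

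Striatal markers ran opposite to Scn2b over the libraries. Their summed level was 265, 247, 256, 256 and 328 CPM in the knockout and 339, 327, 475, 338 and 307 CPM in the wild-type libraries, so that knockout replicate 8, the knockout library at the wild-type level of Scn2b, was also the one at the wild-type level of striatal markers. Over all 15488 tested genes, 7878 had a fold change below 0 and 0.194% were called lower. Of the 16 striatal markers, all tested, 15 had a fold change below 0, and Six3 and Penk were called lower. With the mean log2 CPM of these markers as a covariate, the Scn2b log2 fold change was 0.19 (edgeR adjusted p = 0.999), where 1 gene in all, 0.00646%, was called. With choroid and ependymal markers as the covariate it was 0.29 (adjusted p = 0.761), where 0 genes were called by edgeR. Knockout replicate 1, the highest library for Scn2b, had a choroid and ependymal sum of 357 CPM, inside the wild-type range of 352 to 439 CPM. Cortical excitatory markers summed to 1482, 1402, 1410.3, 1473 and 1335 CPM in the knockout libraries. In the wild-type libraries they summed to 1290.2 to 1384 CPM, a range that held knockout replicate 8 and no other knockout library. The part of striatal tissue, choroid tissue or cortical excitatory neurons in the Scn2b result was not tested.

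Scn3b (Entrez gene 235281), a beta gene prominent early in brain development whose product binds the alpha subunit without a disulfide bond, showed no called difference. It stood at 263, 239, 251, 254 and 223 CPM in knockout and at 229, 254, 241, 242 and 248 CPM in wild-type libraries. Knockout libraries were both the highest and the lowest of the 10. Its log2 fold change was 0.02 (SE 0.0487, edgeR adjusted p = 0.969), with a 95% interval of the fold from 0.944 to 1.08.

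Scn4b (Entrez gene 399548), known for resurgent sodium current and abundant in striatal projection neurons, was scarce, with 13 to 142 reads a library. It stood at 1.68, 1.60, 0.796, 1.06 and 2.18 CPM in knockout and at 3.04, 0.913, 8.22, 2.02 and 1.32 CPM in wild-type libraries. The groups overlapped, and wild-type replicate 5 was the highest. Its log2 fold change was -1.06 (SE 0.568, edgeR adjusted p = 0.665), with a 95% interval of the fold from 0.201 to 1.14. Without wild-type replicate 5 it was -0.32 (adjusted p = 0.923).

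The library highest in Scn4b was also the highest in striatal markers, at 475 CPM. Among the knockout libraries, replicate 8 was highest in both, at 2.18 CPM of Scn4b and 328 CPM of striatal markers. Over the 10 libraries, Pearson's r of log2 CPM between Scn4b and the mean of the striatal markers was 0.72, and that of Scn2b with the same mean was -0.754. With the mean of the choroid and ependymal markers, r was 0.392 for Scn4b and -0.601 for Scn2b. These are descriptions of libraries in which Scn2b was called higher in the knockout. Most striatal markers and all choroid and ependymal markers had fold changes below 0. Scn4b was not called, and its r with the striatal markers includes wild-type replicate 5, the highest library in both measures. With the striatal covariate the Scn4b log2 fold change turned to 1.19 (edgeR adjusted p = 0.999), and the part of striatal tissue in its level was not tested further.

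**Figure D3:**
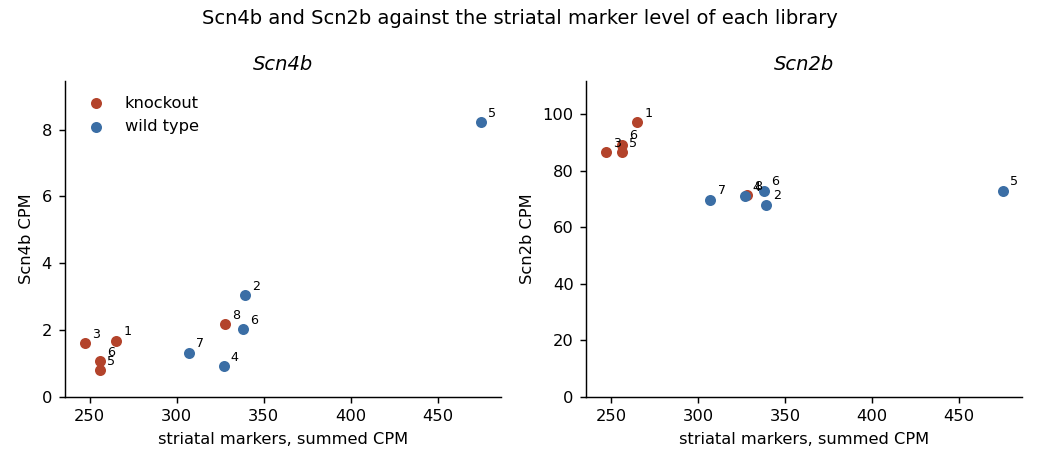
Scn4b and Scn2b (y axes, CPM) against the summed CPM of 16 striatal markers (x axis) in knockout (red) and wild-type (blue) libraries, with replicate numbers. Wild-type replicate 5 is highest in striatal markers (475 CPM) and Scn4b (8.22 CPM), and knockout replicate 8 lies with the wild-type libraries in striatal markers (328 CPM) and Scn2b (71.3 CPM).

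Levels were set between genes per kilobase of exon, with the union of annotated exons in GENCODE M21 as the length. Scn3b and Scn2a led, at 45.0 ± 2.86 and 44.6 ± 2.95 CPM per kb in knockout and 44.5 ± 1.69 and 43.1 ± 2.44 CPM per kb in wild type (SD, n = 5 each), and their ranges overlapped in both genotypes. Scn8a and Scn2b came next and also overlapped, Scn8a at 15.3 ± 0.898 CPM per kb in knockout and 15.6 ± 1.44 CPM per kb in wild type, and Scn2b at 18.5 ± 2.02 CPM per kb in knockout and 15.2 ± 0.458 CPM per kb in wild type. By this length Scn2b was above Scn8a in knockout means and below it in wild-type means, and by coding length it was above Scn8a in both genotypes.

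The early gene Scn3a followed, at 9.69 ± 0.615 CPM per kb in knockout and 10.2 ± 0.413 CPM per kb in wild type, and its range was below those of Scn8a and Scn2b in both genotypes. Scn1a was at 5.71 ± 0.481 CPM per kb in knockout and 5.95 ± 0.0987 CPM per kb in wild type, below Scn3a without overlap. Scn4b was last, at 0.294 ± 0.109 CPM per kb in knockout and 0.623 ± 0.597 CPM per kb in wild type. With the longest coding sequence as the length, the alpha genes kept the order Scn2a, Scn8a, Scn3a, Scn1a, while Scn2b, with 645 coding bases of 4656 exon bases, stood above Scn2a, and Scn3b led alone. Scn3b was then at 381 ± 24.2 CPM per kb in knockout and 377 ± 14.3 CPM per kb in wild type. Scn2b was at 134 ± 14.6 CPM per kb in knockout and 109.9 ± 3.31 CPM per kb in wild type, with Scn2a at 94.4 ± 6.23 CPM per kb in knockout and 91.2 ± 5.16 CPM per kb in wild type. Scn8a was at 40.5 ± 2.37 CPM per kb in knockout and 41.4 ± 3.81 CPM per kb in wild type.

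**Figure D4:**
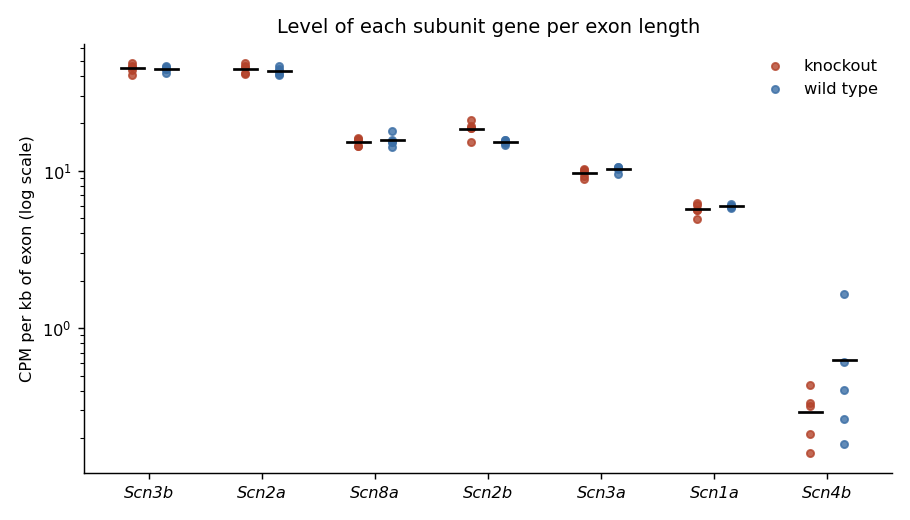
Level of each subunit gene in CPM per kb of exon (log y axis) in knockout (red) and wild-type (blue) libraries, with the mean as a black line, ordered by the wild-type mean. Scn3b and Scn2a lie near 45 CPM per kb, and Scn4b is the one gene below 2 CPM per kb.

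Among the beta members Scn2b made up 30.1%, 29.7%, 28.7%, 29.1% and 27.1% of the summed level per kb in the knockout libraries and 25.5%, 24.6%, 25.4%, 25.9% and 24.6% in the wild-type libraries, with no overlap. Among the alpha members Scn2a made up most of the summed level per kb, 59.2% ± 1.35 in knockout and 57.5% ± 1.16 in wild type (SD, n = 5 each). Scn8a made up 20.4% ± 1.01 in knockout and 20.9% ± 1.19 in wild type. Scn3a made up 13.0%, 13.0%, 12.9%, 12.7% and 12.7% in the knockout libraries and 14.3%, 14.3%, 13.2%, 13.0% and 13.4% in the wild-type libraries. The Scn3a shares met at 13.0%, and the knockout libraries were closer together than the wild-type libraries. Scn1a made up 7.59% ± 0.595 in knockout and 7.96% ± 0.328 in wild type.

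Early and later alpha genes were also set against each other within each library, as ratios of levels per kb and with no test, since they are scores over chosen members. Scn3a over Scn1a averaged 1.70 ± 0.13 in knockout and 1.71 ± 0.07 in wild type (SD, n = 5 each). Scn3a over Scn8a averaged 0.633 ± 0.037 in knockout and 0.656 ± 0.0589 in wild type. Both sets of values overlapped between the genotypes. Scn3a over Scn2a ran from 0.213 to 0.222 in knockout and from 0.226 to 0.257 in wild type, with no overlap, while neither gene passed the test alone. Among the beta members, Scn2b over Scn3b ran from 0.376 to 0.434 in knockout and from 0.328 to 0.354 in wild type, also with no overlap. Scn2b over Scn2a, 0.366 to 0.464 in knockout and 0.336 to 0.378 in wild type, overlapped.

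Other sodium channel genes were measured beside the members. Of 8 listed, 6 were tested and 0 passed the edgeR test, where 2 had an unadjusted p under 0.05. Over all tested genes 0.381% passed and 8.71% had an unadjusted p under 0.05. Nalcn, the sodium leak channel gene, stood at 0.02 on the log2 scale (SE 0.0545), and Scn9a, an alpha gene of sensory neurons, -0.10 (SE 0.137).

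**Figure D5:**
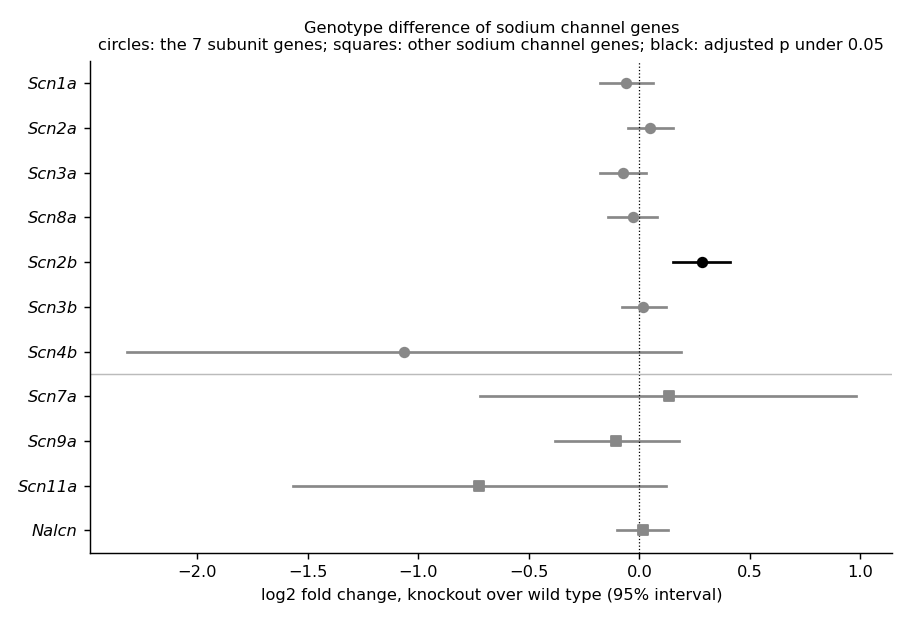
Log2 fold change of knockout over wild type (x axis) with its 95% interval for the 7 subunit genes (circles) and for Scn7a, Scn9a, Scn11a and Nalcn (squares), black where the adjusted p was under 0.05. Scn2b is the one black point, and the intervals of Scn1a, Scn2a, Scn3a, Scn8a and Scn3b all include 0.

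Scn4a, Scn10a and Scn11a, alpha genes of muscle or sensory neurons, had few reads. Scn4a, the skeletal muscle gene, had 0 to 3 reads a library, and Scn10a 0 to 16. Neither was tested. Scn11a had 8 to 36 reads a library and a log2 fold change of -0.72 (SE 0.413, edgeR adjusted p = 0.669), and Scn7a, a sodium-sensing channel gene of glia, 0.13 (SE 0.416).

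Partners that hold sodium channels in place were counted by the edgeR test beside all tested genes. Of 36 genes of the axon initial segment, the fibroblast growth factor homologous factors and other channel partners, 0 were called, beside 0.381% of tested genes. An unadjusted p under 0.05 was found for 3 of the 36, beside 8.71% of tested genes. The median log2 fold change of the partners was 0.01, beside -0.0021 over all tested genes. Among the smallest p were those of Tnc, an extracellular matrix protein that binds beta subunits (log2 fold change -0.23, SE 0.0576, adjusted p = 0.0854), and Csnk2a1, a catalytic subunit of casein kinase 2, which phosphorylates the ankyrin-binding site of the channel (0.17, SE 0.0487, adjusted p = 0.184). DESeq2 and the fit with no filter called 1 gene of this list, Tnc in both, where 0.801% and 0.733% of all genes were called.

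Neuronal genes of later and earlier stages were counted by lists chosen with earlier results of these data known. Of 23 tested late genes, 2 rose and 0 fell, 18 had a fold change above 0, and the median log2 fold change was 0.092. Over all 15488 tested genes, 0.187% were called higher, 7610 had a fold change above 0 and the median was -0.0021. With the striatal or the choroid covariate, 0 late genes were called by edgeR. Kcnj9, a potassium channel gene, rose by 0.24 (SE 0.0535, edgeR adjusted p = 0.0346). Snap25, a vesicle fusion gene, was at 0.15 (SE 0.0456, adjusted p = 0.229).

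Of 27 tested early genes, 0 rose and 1 fell, 18 had a fold change below 0, and the median was -0.085. Over all tested genes 0.194% were called lower and 7878 had a fold change below 0. With either covariate, 0 early genes were called by edgeR. Lin28b, an RNA-binding regulator of developmental timing, fell by 0.87 (SE 0.195, edgeR adjusted p = 0.0386). Gap43, a growth cone gene, was at -0.13 (SE 0.0428, adjusted p = 0.256), and Crmp1, of axon growth signalling, -0.17 (SE 0.0583, adjusted p = 0.33). Without single libraries, 0 to 3 late and 0 to 6 early genes were called, in fits where 0.0961% to 1.16% of all genes were. The late count was 0 without knockout replicate 3 or wild-type replicate 2, and 1 without knockout replicate 6 or wild-type replicate 4, 5 or 7. The early count was 6 without knockout replicate 8, and 0 without knockout replicate 3, 5 or 6 or wild-type replicate 2, 4, 5 or 6. Beside these lists, the early alpha gene Scn3a (-0.08) and the later Scn1a (-0.06) and Scn8a (-0.03) had fold changes just below 0, and Scn2a (0.05) was just above 0. None of the 4 passed the edgeR test, and the signs of Scn1a, Scn2a and Scn8a turned with the striatal or choroid covariate.

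The genes next to Scn2b and Scn4b did not share a direction. Scn2b and Scn4b follow each other in the RefSeq order of tested genes. On one side the log2 fold change was -0.06 for Mpzl2 (SE 0.306) and 0.49 for Mpzl3, a myelin protein zero-like gene (SE 0.228, edgeR adjusted p = 0.523). On the other side Il10ra, an interleukin receptor gene, was at 0.42 (SE 0.231, adjusted p = 0.645) and Fxyd6, a regulator of the sodium pump, -0.06 (SE 0.0483). Mpzl2, Mpzl3 and Il10ra averaged under 5 CPM in both genotypes. On chromosome 2, Scn3a, Scn2a and Scn1a lie in 1 cluster with Scn9a and Scn7a, and their log2 fold changes ran from -0.10 to 0.13.

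The patterns of the members over the 10 libraries were not alike. Pearson's r of log2 CPM between members ran from -0.473, for Scn3b with Scn4b, to 0.602, for Scn2b with Scn3b. Among the alpha genes it ran from 0.0802, for Scn1a with Scn2a, to 0.523, for Scn1a with Scn3a. All share library scaling, and these are descriptions over 10 libraries.

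Over the 10 libraries, Scn2b was most like Tppp, a microtubule gene of oligodendrocytes (r = 0.97), and Pigq (r = 0.935). Tppp differed by 0.19 on the log2 scale (SE 0.0523, edgeR adjusted p = 0.134). Oligodendrocyte lineage markers summed to 419 to 482 CPM in knockout and 412 to 534 CPM in wild-type libraries. Scn3a was most like Apaf1, of the apoptosome (r = 0.94), and Csmd3 (r = 0.929). Scn1a was most like the potassium channel gene Kcnh5 (r = 0.935) and Klhl14 (r = 0.929), Scn2a like the receptor phosphatase gene Ptprf (r = 0.947) and Adgrg2 (r = 0.944), and Scn8a like Akap6, an anchoring protein gene (r = 0.938), and Hipk2 (r = 0.933). Scn3b was most like the protocadherin gene Pcdhgc5 (r = 0.924). Scn4b was most like Zfp449 (r = 0.893) and Slc5a7, the choline transporter gene of cholinergic neurons (r = 0.879). Each is among the 2 highest of the tested genes outside the 7 members, predicted genes passed over, in 10 libraries, a description with no test.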

How the data were processed

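The authors deposited 1 table of raw counts, with genes by Entrez identifier and a column for each library. The submitters' processing notes name HISAT2, featureCounts and the build mm39. The sources used here give no versions, annotation, strand setting or rule for multi-mapped reads, so the split of reads among similar alpha genes is uncertain. In GENCODE M21 (GRCm38, used for exon lengths) the exons of the 7 members share 0 bases with other genes.

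Symbols were taken from RefSeq's GRCm38.p6 table, which matched 30648 of 30935 identifiers and was used for names and gene order only. Counts were tested in R 4.3.3 with edgeR 4.0.16: filterByExpr, TMM, robust quasi-likelihood F test, genotype as the sole term, two-sided, adjusted over 15488 genes. Standard errors come from the F statistic. CPM uses TMM-scaled totals, and correlations use log2 CPM with a prior count of 2. The code was tested on simulated data. Alternatives used limma 3.58.1, DESeq2 1.42.0 and other settings.

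The members and lists were chosen with earlier results of these data known. Named genes are the members, other sodium channel genes, the called genes and the 3 smallest p of each list, 2 neighbours on each side of Scn2b and Scn4b, and the 2 genes most like each member, with predicted genes passed over. Some genes this rule names are not reported here. Libraries of one genotype differed by more than sampling noise (chi-square per degree of freedom 4.10 to 13.9), and the series' text calls them independent.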

Additional observations from a re-analysis of the deposited data

Results flagged for a closer look

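Of 98 groups of 5 libraries examined for a library far from the other 4, 1 was singled out, and chance gives about 1 in 20. Gap43 stood at 894 CPM in wild-type replicate 6, against 960.4 to 974 CPM in the other wild-type libraries. It is a gene of the early neuronal list, and no subunit gene was singled out.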

How the results depend on the processing

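Scn2b kept its direction under all 23 alternatives and lost its call under most. Scn2b log2 fold changes were 0.28 with non-robust dispersions (adjusted p = 0.064), 0.27 with limma-voom (0.0642), 0.28 with the sex covariate (0.0771), 0.19 with the striatal covariate, 0.29 with the choroid covariate, and 0.25 without knockout replicates 3, 5 and 6. Without single libraries they ran from 0.23 to 0.345. Replicate numbers 5 and 6 occur in both genotypes but nothing in the labels pairs them, and same-numbered libraries did not deviate together (r = -0.0303 and -0.0566). In these 4 libraries with the replicate block, Scn2b stood at 0.27 (adjusted p = 1.0), Scn4b passed the test at -2.17 (edgeR adjusted p = 0.00297) and 29 genes, 0.186%, were called in all. Without the block, an alternative chosen after the data were seen, Scn2b stood at 0.27, Scn4b at -2.43 with its call lost (edgeR adjusted p = 0.315), and 10 genes were called.

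Signs of small differences that were not called turned with the covariates. With the striatal covariate the log2 fold changes were 0.0722 for Scn1a, -0.0556 for Scn2a, 0.0162 for Scn8a, -0.0651 for Scn3b and 1.19 for Scn4b. With the choroid covariate they were 0.026 for Scn1a, -0.0049 for Scn2a and 0.0305 for Scn8a. Without knockout replicates 3, 5 and 6 they were 0.0446 for Scn1a, 0.0188 for Scn8a and -0.00083 for Scn3b. Without single libraries Scn8a ran from -0.0645 to 0.03, Scn3b from -0.00773 to 0.0533 and Scn4b from -1.30 to -0.32. Scn3a stayed below 0 throughout, from -0.15 to -0.04. Scn4b has no value with at least 50 counts in 5 libraries. The causes were not tested.

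Against 59 genes in all, the count was 171 with no filter, 124 with DESeq2, 28 with the sex covariate, 1 with the striatal covariate, 0 with the choroid covariate, 12 without knockout replicates 3, 5 and 6, and 15 to 182 without single libraries. It was 182 without knockout replicate 8, 37 without knockout replicate 6, 21 without wild-type replicate 4, 17 without knockout replicate 3 or wild-type replicate 5, and 15 without wild-type replicate 2. The 1 called member became 0 with non-robust dispersions, limma-voom, each covariate, replicates 5 and 6 alone and without knockout replicates 3, 5 and 6, and 0 to 1 without single libraries. The channel partners went to 1 with no filter and with DESeq2. Late neuronal genes went to 0 with the replicate block, replicates 5 and 6 alone, the striatal and choroid covariates and without knockout replicates 3, 5 and 6, to 1 with the sex covariate, and to 0 to 3 without single libraries. Early neuronal genes went to 2 with no filter, to 0 with limma-voom, the replicate block, replicates 5 and 6 alone, each covariate and without knockout replicates 3, 5 and 6, and to 0 to 6 without single libraries. The Scn3a share of the alpha level was 12.4% in knockout with coding length, 12.1% in knockout and 12.9% in wild type with no length, and 12.8% to 12.9% in knockout and 13.5% to 13.8% in wild type without single libraries. At 13 to 142 reads a library, depth limits Scn4b.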

Other observations

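The vesicular GABA transporter gene Slc32a1, a marker of inhibitory neurons, averaged 90.6 ± 6.18 CPM in knockout and 114 ± 10.4 CPM in wild type (SD, n = 5 each). This was -0.33 on the log2 scale (SE 0.0606, edgeR adjusted p = 0.00989), while Scn1a, the alpha gene of fast-spiking inhibitory neurons, had -0.06. All 5 tested interneuron markers had a fold change below 0, with a median of -0.184, and Pvalb did not pass the low-count filter. Over all 15488 tested genes, 0.194% were called lower and 7878 had a fold change below 0. The summed interneuron markers overlapped, at 470.4 to 590.4 CPM in knockout and 580.4 to 663 CPM in wild-type libraries. Most striatal markers were also lower in the knockout, and the cells behind the Slc32a1 difference were not tested.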
